A study of Homo sapiens with 6 samples.

Results

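Actin filaments give a cell its shape, its grip on neighbours and matrix, and its ability to move. Globular actin is held in reserve by thymosins and profilins, nucleated and elongated by formins, WASP-family proteins and Ena/VASP proteins, severed by cofilins and capped by CapZ. Bundling proteins, tropomyosins and non-muscle myosin II turn the filaments into contractile cables, which vinculin, talin, zyxin and paxillin join to integrins at focal adhesions, and which ezrin, radixin and moesin join to the membrane. Many genes of this apparatus are textbook targets of serum response factor (SRF), which binds the CArG box and whose activity is held in check by unpolymerised actin.

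A list of 52 genes of this apparatus was followed in stable lines of HEK293T, a human embryonic kidney cell line expressing the SV40 large T antigen. The lines expressed 1 of 2 short hairpin RNAs against linc00598, a long noncoding RNA (shlinc00598#2 and shlinc00598#3), or a control short hairpin RNA (shCTL), and the question was which transcripts differ once linc00598 is knocked down. The genes were taken by symbol from their annotated probes on Illumina HumanHT-12 v4 arrays, 2 for each line and 6 in all. Of the 52 genes, 48 had a named probe (89 probes) and 46 were detected, among 17225 genes and unnamed probes detected in all, of which 12192 are named genes. FLNA, FLNC, TPM3 and WASF1 had no probe under their symbol, and CNN1 and MYL9, the calponin and myosin light chain of smooth muscle, had probes that were not above background on any array. Each line stands for 1 selected population per hairpin, linc00598 itself has no named probe by which its knockdown could be measured, and nothing in the labels tells separate cultures from repeat arrays of 1 culture, so p-values measure the spread between these arrays.

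Levels are quantile-normalised log2 intensities of the brightest detected probe of a gene, where a detected probe is one with a detection p under 0.05 on each array of some line. Between 20864 and 22134 probes were detected on an array. Of the authors' 6 processed columns, 4 held another array than the one their own accession describes. The levels below therefore come from the intensities before normalisation, whose columns match the sample descriptions, and values from the processed columns as labelled are given beside the main results. Which labelling is right was not tested, so the line and replicate given to each array rest on those descriptions. Of the HEK293 lineage markers, NEFL, NEFM, INA and VIM were detected on all 6 arrays and PAX2 and PAX8 on none. Of 8 muscle markers with a probe, 4 were detected on no array and 2, ACTA1 and ACTA2, on all 6. Also detected on all 6 were 2 of 7 fibroblast markers (COL1A1 and COL3A1), 2 of 4 epithelial markers (CDH1 and EPCAM), 1 of 3 leukocyte markers (CD14) and 0 of 3 endothelial markers. ACTA2, the smooth muscle actin, read 11.25 and 9.07 in shlinc00598#2, 11.49 and 9.04 in shlinc00598#3, and 11.09 and 9.47 in shCTL (replicates 1 and 2), so it was set apart by replicate and not by line.

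Promoter sequence is shown for 4 members: RHOB and TMSB4X, which were lower in both knockdown lines, and ACTG1 and CNN2, which carry the SRF motif. The runs are RefSeq sequence of GRCh38.p14, from 250 bases before to 50 bases after the start site, 5′ to 3′ on the gene's strand, with CArG boxes and CCAAT boxes (either strand) in capitals.
RHOB: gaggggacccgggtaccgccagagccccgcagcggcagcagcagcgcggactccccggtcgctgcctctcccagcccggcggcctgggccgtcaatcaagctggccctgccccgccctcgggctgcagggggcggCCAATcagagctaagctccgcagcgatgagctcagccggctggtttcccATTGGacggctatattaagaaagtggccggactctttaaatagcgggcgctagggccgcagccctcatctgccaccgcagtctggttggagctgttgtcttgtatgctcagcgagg
TMSB4X: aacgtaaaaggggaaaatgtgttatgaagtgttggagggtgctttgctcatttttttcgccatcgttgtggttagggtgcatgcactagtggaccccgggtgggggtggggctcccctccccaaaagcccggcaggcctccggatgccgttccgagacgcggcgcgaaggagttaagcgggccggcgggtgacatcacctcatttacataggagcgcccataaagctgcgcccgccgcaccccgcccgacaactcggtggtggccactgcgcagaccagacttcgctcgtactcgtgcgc
ACTG1: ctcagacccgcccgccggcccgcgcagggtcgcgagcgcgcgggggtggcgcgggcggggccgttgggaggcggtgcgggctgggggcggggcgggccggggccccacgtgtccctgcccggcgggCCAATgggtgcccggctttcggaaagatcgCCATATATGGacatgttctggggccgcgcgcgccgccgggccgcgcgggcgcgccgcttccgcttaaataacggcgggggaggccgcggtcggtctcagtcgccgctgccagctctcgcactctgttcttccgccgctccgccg
CNN2: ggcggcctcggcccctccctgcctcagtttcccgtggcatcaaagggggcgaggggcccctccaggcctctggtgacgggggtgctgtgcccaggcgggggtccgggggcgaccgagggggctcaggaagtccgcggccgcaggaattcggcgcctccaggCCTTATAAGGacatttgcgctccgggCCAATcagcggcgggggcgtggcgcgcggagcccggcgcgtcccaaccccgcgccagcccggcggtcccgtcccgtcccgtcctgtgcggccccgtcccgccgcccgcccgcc

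These windows lie at chr2:20446824-20447123 (plus strand, RHOB), chrX:12974860-12975159 (plus strand, TMSB4X), chr17:81512750-81513049 (minus strand, ACTG1) and chr19:1026358-1026657 (plus strand, CNN2). RHOB held a CCAAT box on each strand, and TMSB4X held neither motif. The CArG box began at -94 in ACTG1 and at -89 in CNN2, counted from the start site. Of the 52 genes, 45 had a promoter in the RefSeq table, 68 promoters in all, and the CArG box was found in 5 of these 68 (7.35%: ACTG1, ACTN1, CNN2, FLNA and TPM4), against 1.29% of all 35116 promoters of this length. CCAAT was found in 23 of the 68 (33.8%), against 34.6% of all, and GGAATG, the TEAD motif, in 10 (14.7%), against 14% of all. The AP-1 motif TGANTCA was found in 5.88% against 7.71%, and neither the forkhead motif GTAAACA (3.42% of all) nor TATAAA (7.33% of all) was found in any. TATAAA was searched on the gene's strand only, and the other motifs on both strands. CCAAT can overlap a CArG box, as in FLNA. A match describes letters, not bound sites.

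No detected member passed the test in any contrast of the lines. With limma, 0 of 46 members had an adjusted p under 0.05 in the mean of both knockdown lines against shCTL, nor did any of the 17225 genes and unnamed probes (0%). At an unadjusted p under 0.05 there was 1 member, CAPZA1 (not above background in shlinc00598#3), against 1.91% of all. The replicate numbers pair the arrays, and in the fit with the replicate as a block 0 of 46 members were called, against 0.00581% of all, with 6 members (13.0%) at an unadjusted p under 0.05, against 13.7% of all. The single lines gave 0 members as well. For shlinc00598#2 the shares of all called were 0%, and 0.0174% with the block, with 0 members unadjusted (1.83% of all) and 4 with the block (13.1% of all). For shlinc00598#3 they were 0%, and 0.0232% with the block. There 1 member passed unadjusted, again CAPZA1 (1.57% of all), and 6 with the block (11.7% of all). The members' share at an unadjusted p was thus near that of all genes in each of these contrasts.

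The sizes of the differences were small. In these bulk samples a smaller share of some cells in a line and less RNA per cell cannot be told apart. The median log2 difference of the 46 members in the mean of both knockdown lines was -0.06, against 0.00 for all genes (to 2 decimals), and the range was -0.57 to 0.16. There were 33 members lower and 13 higher than in shCTL. For 39 of them the difference was under 0.2, and the 7 others, FSCN1, TMSB4X, RHOB, PDLIM7, CAPZA1 (not above background in shlinc00598#3), LIMA1 and CNN2, were all lower. In size the members' median difference was 0.09 and their upper quartile 0.13, against 0.10 and 0.17 for all genes. The members' median standard error with the block was 0.09. The shares of all genes lower than shCTL, or beyond 0.2, were not counted. Within replicate 1 the members' medians were -0.10 for shlinc00598#2 and -0.01 for shlinc00598#3, and within replicate 2 they were -0.03 and -0.04. Set against the shCTL array of the same replicate, 12 members (26.1%) were lower in all 4 comparisons, against 16.1% of all genes, and 5 (10.9%) were higher in all 4, against 15.5% of all. With the arrays scaled to a common median in place of quantile normalisation the members' median was -0.01, against 0.03 for all genes, and 4 of the 12 (FSCN1, PDLIM7, RHOB and TMSB4X; 8.7% of the members) were lower in all 4, against 10.1% of all genes.

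**Figure D1:**
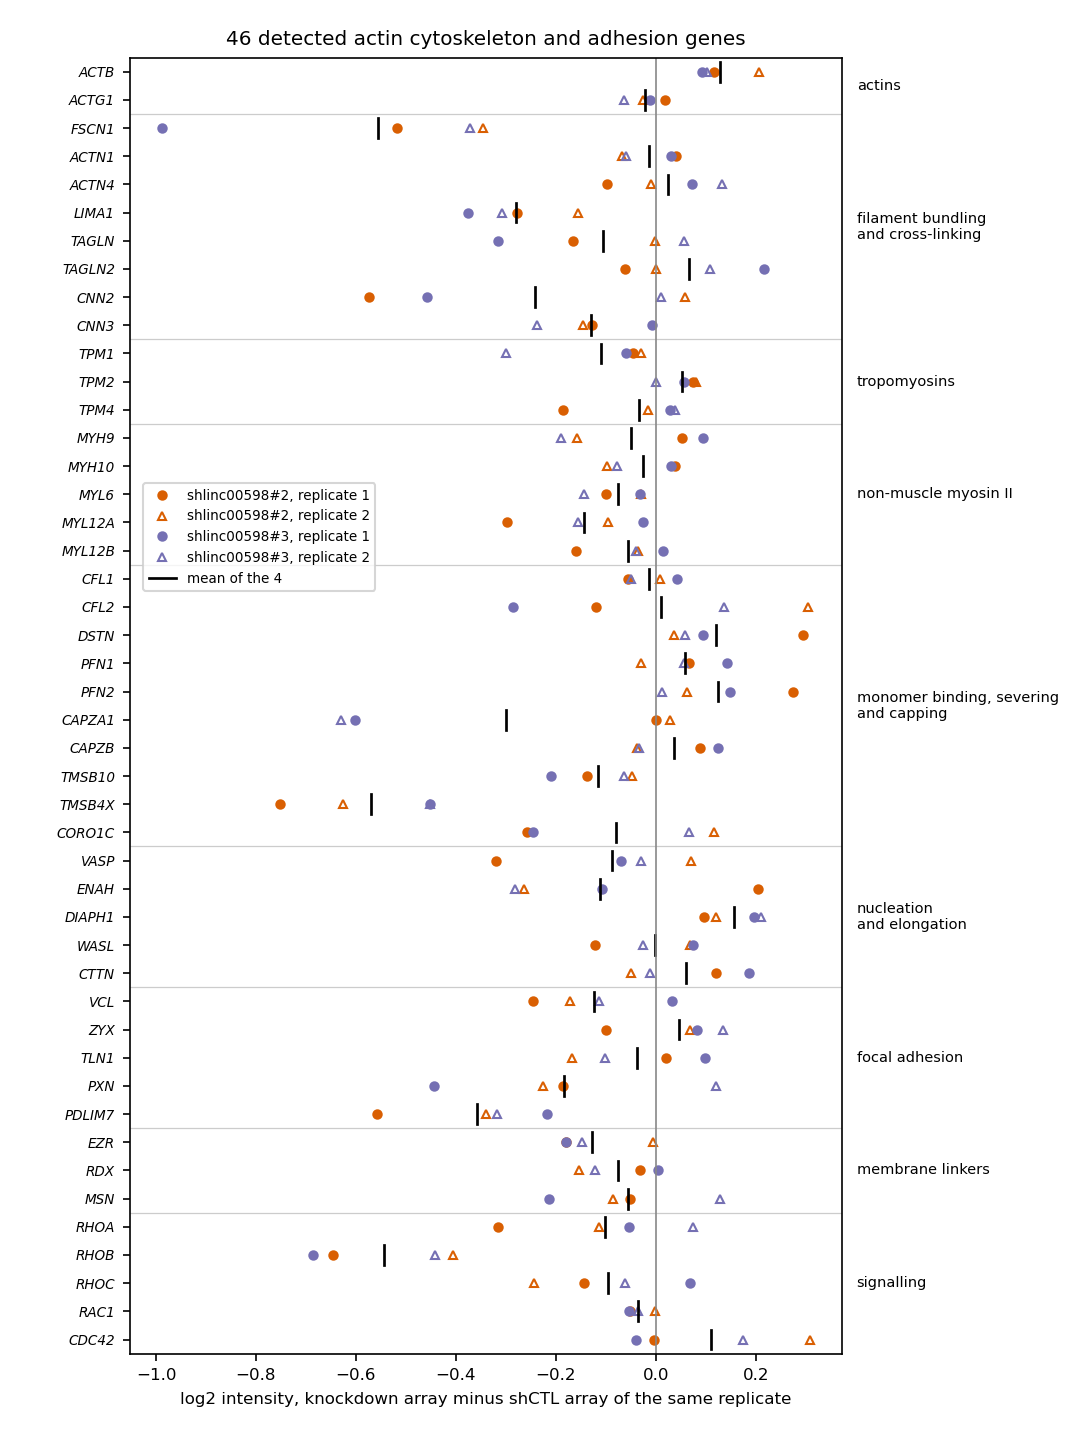
Difference in log2 intensity of each detected member (rows, grouped by role) between a knockdown array and the shCTL array of the same replicate, with colour for the line, shape for the replicate and a bar for the mean of the 4 comparisons. Most bars lie within 0.2 of 0, and the bars of FSCN1, TMSB4X and RHOB lie beyond -0.5.

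By the study's criterion, read as at least 1.4-fold in both lines, RHOB was the 1 member lower, against 0.284% of all genes, and 0 were higher, against 0.0581% of all. In shlinc00598#2 alone 2 members were at least 1.4-fold lower, TMSB4X and RHOB (1.11% of all), and 0 higher (0.441% of all). In shlinc00598#3 alone 3 were lower, FSCN1, CAPZA1 and RHOB (0.946% of all), and 0 higher (0.662% of all). Of these, CAPZA1 was not above background in shlinc00598#3 and passed the detection filter only through the lines where it was higher. On 2 members, PDLIM7 and EZR, all 4 knockdown arrays lay below both shCTL arrays, against 5.56% of all genes, and on 0 members did all 4 lie above, against 5.16% of all.

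RHOB encodes a short-lived small GTPase of endosomes and the plasma membrane, whose transcript belongs to the immediate early genes. Its level was 12.61 and 10.86 in shlinc00598#2, 12.57 and 10.83 in shlinc00598#3, and 13.25 and 11.27 in shCTL (replicates 1 and 2). Within a replicate both knockdown lines lay below shCTL, but each line's replicate 2 lay below all replicate 1 arrays, so the lines overlapped. The SD between replicates was 1.23 in each knockdown line (n = 2 each). The mean difference was -0.54 on the log2 scale (limma adjusted p = 0.9998, and 0.102 with the block, where its standard error was 0.10). The difference was -0.24 with the processed columns as labelled.

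Thymosin beta 4, from TMSB4X, binds actin monomers and keeps them from polymerising. TMSB4X read 12.48 and 11.60 in shlinc00598#2, 12.78 and 11.78 in shlinc00598#3, and 13.23 and 12.23 in shCTL. Both knockdown lines were again below shCTL within each replicate, by 0.75 and 0.63 in shlinc00598#2 and by 0.45 in both replicates of shlinc00598#3. The means were 12.04 ± 0.62 in shlinc00598#2, 12.28 ± 0.71 in shlinc00598#3 and 12.73 ± 0.71 in shCTL (SD, n = 2 each). The mean difference was -0.57 ± 0.09 (standard error with the block; limma adjusted p = 0.9998, and 0.0902 with the block), and -0.10 with the processed columns as labelled. Its near relative TMSB10, thymosin beta 10, differed by -0.12 (adjusted p = 0.605 with the block) and was lower in all 4 comparisons.

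FSCN1 encodes fascin, which packs filaments into the tight bundles of filopodia. It read 11.47 and 12.25 in shlinc00598#2, 11 and 12.22 in shlinc00598#3, and 11.98 and 12.60 in shCTL. Here replicate 2 was the higher one, and shlinc00598#3 in replicate 1 was the lowest array, 0.99 below its shCTL array against 0.37 in replicate 2. The mean difference was -0.56 ± 0.13 (standard error with the block; limma adjusted p = 0.9998, and 0.127 with the block), and -0.30 with the processed columns as labelled.

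RHOB, TMSB4X and FSCN1 had no call on the 6 arrays, but they passed the threshold with the block kept and shCTL replicate 2 left out. Their differences were then -0.67, -0.60 and -0.75. That fit was chosen after seeing the data and leaves shCTL 1 array. It takes the comparison with shCTL from replicate 1 alone, so its calls are not read as a result about the members. None of the 3 was called with any other array left out.

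**Figure D2:**
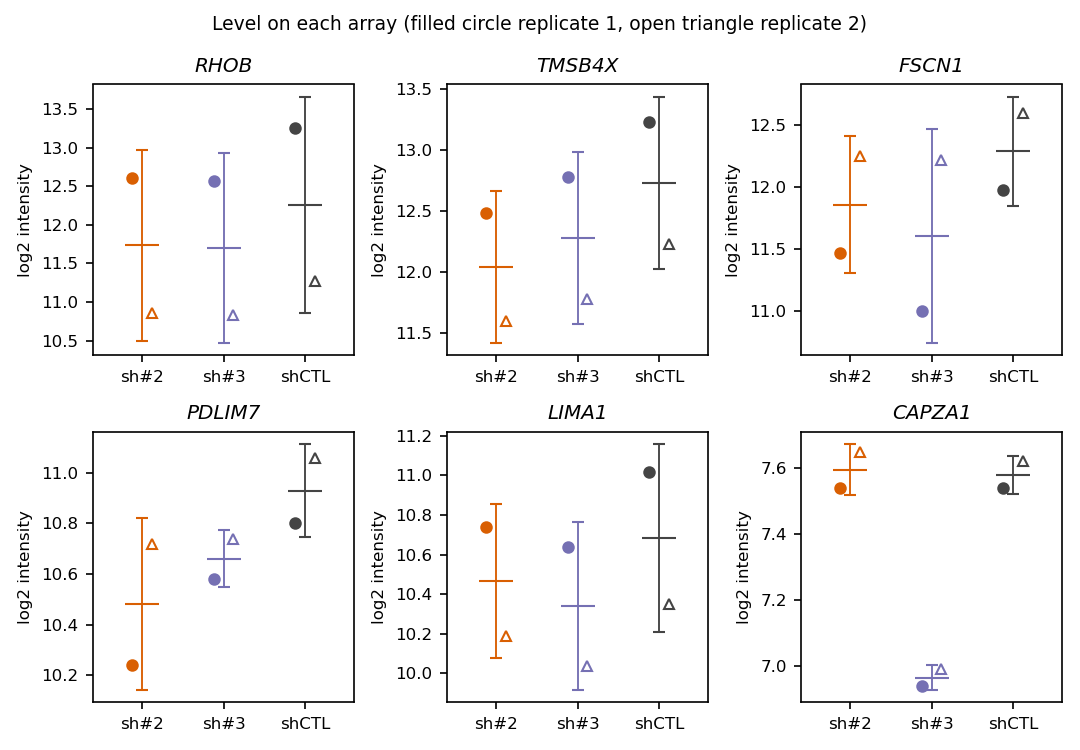
Log2 intensity of 6 members on each array of shlinc00598#2 (sh#2), shlinc00598#3 (sh#3) and shCTL, with circles for replicate 1, triangles for replicate 2, and horizontal bars and error bars for the mean and SD (n = 2). For RHOB, TMSB4X and LIMA1 the replicates of a line lie farther apart than the lines do, and both shlinc00598#3 values of CAPZA1, at 6.94 and 6.99, were not above background.

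Among the other bundling and cross-linking proteins, LIMA1, which encodes the filament-stabilising protein EPLIN, read 10.74 and 10.19 in shlinc00598#2, 10.64 and 10.04 in shlinc00598#3, and 11.02 and 10.35 in shCTL. It was lower in all 4 comparisons, with a mean difference of -0.28 ± 0.09 (standard error with the block; limma adjusted p = 0.9998, and 0.233 with the block), and -0.16 with the processed columns as labelled. CNN2, a non-muscle calponin, read 9.18 and 10.15 in shlinc00598#2, 9.30 and 10.10 in shlinc00598#3, and 9.76 and 10.09 in shCTL. Its difference was therefore confined to replicate 1, at -0.57 and -0.46 there and 0.06 and 0.01 in replicate 2 (mean -0.24, limma adjusted p = 0.9998, and 0.442 with the block, and -0.29 with the processed columns as labelled). The alpha-actinins, which cross-link filaments in stress fibres, stayed close to shCTL, with differences of -0.01 ± 0.09 for ACTN1 and 0.02 ± 0.09 for ACTN4 (standard error with the block). TAGLN and TAGLN2, the transgelins, differed by -0.11 and 0.07, and CNN3, calponin 3, by -0.13. Over the 8 detected genes of this group the median was -0.12, with 3 lower and 0 higher in all 4 comparisons.

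The cytoplasmic actins were close to or above their levels in shCTL. The study used beta-actin, from ACTB, to normalise qRT-PCR levels and, as protein, for loading control in Western blots. ACTB read 14.13 and 14.89 in shlinc00598#2, 14.11 and 14.79 in shlinc00598#3, and 14.01 and 14.68 in shCTL. It was higher in all 4 comparisons by 0.09 to 0.21, with a mean difference of 0.13 ± 0.09 (standard error with the block; limma adjusted p = 0.9998, and 0.55 with the block), and its 2 other detected probes gave 0.16 and 0.24. With the processed columns as labelled the sign turned, at -0.03. ACTG1, gamma-actin, differed by -0.02 on its brightest probe and by 0.46 on the other. That second probe read 11.96 and 13.12 in shlinc00598#2, 11.96 and 13.14 in shlinc00598#3, and 11.57 and 12.61 in shCTL, higher in all 4 comparisons, so no single direction can be given for ACTG1. ACTB and ACTG1 are close in sequence, and a probe of one may also read the other.

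Tropomyosins wrap along the filament and set which myosins and severing proteins reach it. TPM1 read 10.38 and 10.62 in shlinc00598#2, 10.37 and 10.35 in shlinc00598#3, and 10.43 and 10.65 in shCTL. Its mean difference of -0.11 (limma adjusted p = 0.9998, and 0.654 with the block, and -0.09 with the processed columns as labelled) came mainly from 1 array, shlinc00598#3 replicate 2, at -0.30, and its second detected probe gave -0.0078 and was lower in 2 of the 4 comparisons. TPM2 differed by 0.05 and TPM4 by -0.03. All 5 detected genes of non-muscle myosin II, the motor of contraction, were below shCTL on average, between -0.14 and -0.03, and 2 of them, the light chains MYL6 and MYL12A, were lower in all 4 comparisons. MYL12A read 12.70 and 12.74 in shlinc00598#2, 12.97 and 12.68 in shlinc00598#3, and 12.99 and 12.84 in shCTL (limma adjusted p = 0.9998, and 0.553 with the block, and -0.07 with the processed columns as labelled). The regulatory light chains MYL12A and MYL12B are nearly identical, and their probes may read both. The heavy chains MYH9 and MYH10 differed by -0.05 and -0.03 on the probes used, each higher than shCTL in replicate 1 and lower in replicate 2. The second detected probe of MYH9 did not share this pattern. It read 12.50 and 12.96 in shlinc00598#2, 12.49 and 12.82 in shlinc00598#3, and 12.61 and 12.84 in shCTL.

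Of the 10 genes that bind monomers, sever or cap filaments, TMSB4X and CAPZA1 were more than 0.2 from shCTL, and the group's median was 0.00 to 2 decimals. CAPZA1 encodes an alpha subunit of the capping protein that closes the fast-growing end. It read 7.54 and 7.65 in shlinc00598#2, 6.94 and 6.99 in shlinc00598#3, and 7.54 and 7.62 in shCTL. Both shlinc00598#3 arrays were not above background (detection p of 0.0636 and 0.0571), so only a bound can be given, at least 1.5-fold lower in shlinc00598#3 than in shCTL and at least 1.52-fold lower than in shlinc00598#2. This bound sets the mean of the brighter line against the lowest detected signal of each shlinc00598#3 array. The difference of shlinc00598#2 from shCTL was 0.01. Over the 45 other members, the differences of shlinc00598#3 from shlinc00598#2 ran between -0.25 and 0.24. Tested directly, 0 members differed between the lines at an adjusted p under 0.05 (0% of all, and 0% with the block). Unadjusted, 1 member passed, CAPZA1 (1.18% of all), and 2 with the block (8.6% of all). CAPZA1 sits near the floor of the array, its second probe was not detected, and CAPZB, the partner subunit, differed by 0.04. DSTN (destrin, which severs filaments), PFN1 and PFN2 (profilins, which deliver monomers to growing ends) differed by 0.12, 0.06 and 0.12, and DSTN and PFN2 were higher in all 4 comparisons. CFL1, cofilin 1, differed by -0.01, and CORO1C, a coronin, by -0.08.

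Of the factors that start or lengthen filaments, DIAPH1 encodes a formin. It read 11.42 and 11.62 in shlinc00598#2, 11.52 and 11.71 in shlinc00598#3, and 11.32 and 11.50 in shCTL, higher in all 4 comparisons by 0.10 to 0.21 (mean 0.16 ± 0.09, standard error with the block; limma adjusted p = 0.9998, and 0.467 with the block). Its second probe gave 0.15, and the processed columns as labelled gave 0.07. VASP and ENAH, which shield growing ends from capping, differed by -0.09 and -0.11, and WASL and CTTN, which act through the Arp2/3 complex, by 0.00 (to 2 decimals) and 0.06, none in 1 direction in all 4 comparisons.

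At focal adhesions PDLIM7, a PDZ and LIM domain scaffold also called enigma, read 10.24 and 10.72 in shlinc00598#2, 10.58 and 10.74 in shlinc00598#3, and 10.80 and 11.06 in shCTL. All 4 knockdown arrays lay below both shCTL arrays, with a mean difference of -0.36 ± 0.10 (standard error with the block; limma adjusted p = 0.9998, and 0.183 with the block). The other detected probes gave -0.37 and -0.09, and the processed columns as labelled gave -0.10. The core adhesion proteins were nearer to shCTL: VCL (vinculin) differed by -0.12, TLN1 (talin 1) by -0.04, ZYX (zyxin) by 0.05 and PXN (paxillin) by -0.18, none in 1 direction in all 4 comparisons. Of the linkers to the membrane, EZR (ezrin) read 13.56 and 13.70 in shlinc00598#2, 13.56 and 13.56 in shlinc00598#3, and 13.74 and 13.70 in shCTL. Its mean difference was -0.13 (limma adjusted p = 0.9998, and 0.564 with the block, and -0.12 with the processed columns as labelled), and its 4 knockdown arrays were separated from shCTL by 0.0057 at the closest. RDX (radixin) and MSN (moesin) differed by -0.08 and -0.06. RHOA, whose product drives stress fibres, differed by -0.10, RHOC by -0.10, RAC1, whose product drives lamellipodia, by -0.04, and CDC42, whose product drives filopodia, by 0.11.

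The probes of a gene did not always give 1 value. Of the 22 members with more than 1 detected probe, 4 had probes of opposite sign: ACTG1, CFL2 (0.01 and -0.31), RAC1 (-0.04 and 0.09) and DSTN, 1 of whose 3 probes gave 0.00 to 2 decimals. The probes of PDLIM7, CTTN (0.04 to 0.25) and RHOC (-0.10 and -0.27) shared a sign but differed by up to 0.28. The probes of DIAPH1, PFN1 and CAPZB lay within 0.01 of each other. RHOB, TMSB4X, FSCN1 and LIMA1 rested on 1 detected probe each.

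**Figure D3:**
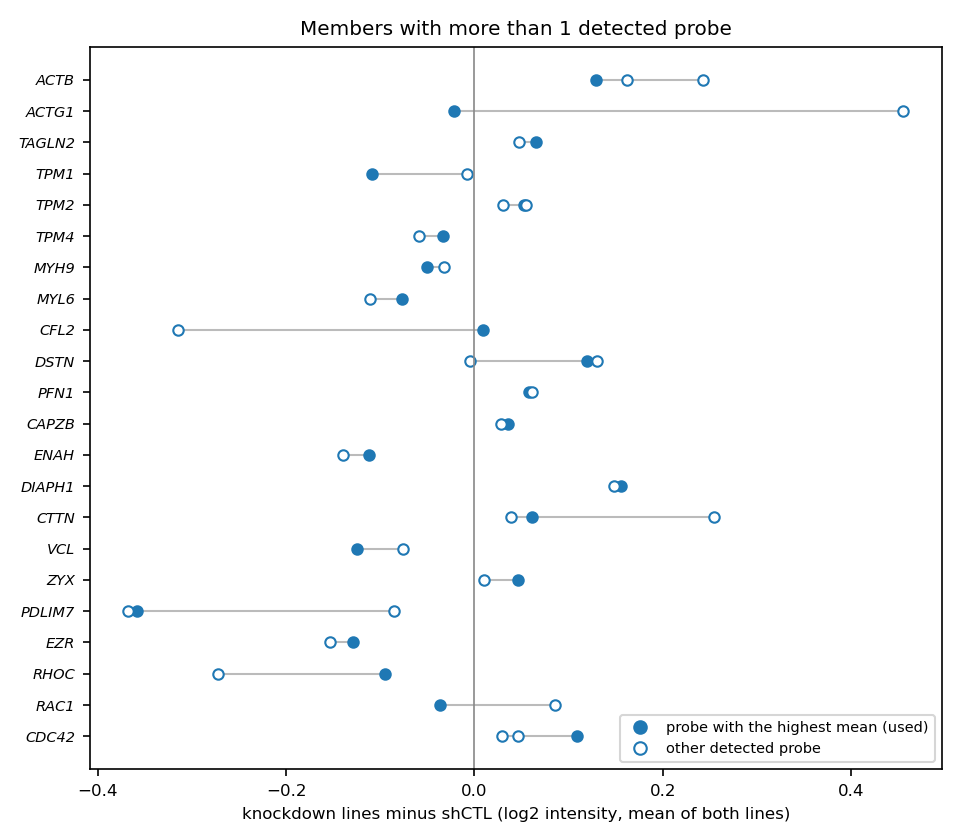
Difference in log2 intensity between the mean of both knockdown lines and shCTL for every detected probe of the 22 members with more than 1, with a filled circle for the brightest probe, which was used, and open circles for the others. The probes of ACTG1 lie farthest apart, at -0.02 and 0.46, and for most members the probes lie within 0.1 of each other.

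The replicates differed more than the lines. Between replicate 2 and replicate 1, over the 3 lines, 14 members (30.4%) were higher with limma at an adjusted p under 0.05, against 18.8% of all genes, and 9 (19.6%) were lower, against 17.8% of all. In size this difference had a median of 0.27 over the members, against 0.19 over all genes, and it exceeded the line difference for 34 of the 46. The members were also brighter, with a median level of 11.35 against 8.85 over all genes. With a detection p under 0.01 on all 6 arrays, 14 members (31.1%) were higher in replicate 2, against 23.4% of all. Lower were 9 (20%), against 20.8% of all. RHOB fell in replicate 2 by 1.82 on the log2 scale and TMSB4X by 0.96, while TMSB10 rose by 0.97, FSCN1 by 0.87, ACTB by 0.70, CNN2 by 0.70, ACTN1 by 0.67, ACTN4 by 0.53, TPM2 by 0.53 and ACTG1 by 0.49 (adjusted p between 5.31e-06 and 0.00198). Of the other members, ZYX fell by 0.57 and RHOC by 0.58, and LIMA1 fell by 0.61. The thymosins thus moved in opposite directions, and so did the proteins that bundle filaments. The labels do not say what separated the replicates. With the processed columns as labelled, 0 members differed between them in either direction.

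**Figure D4:**
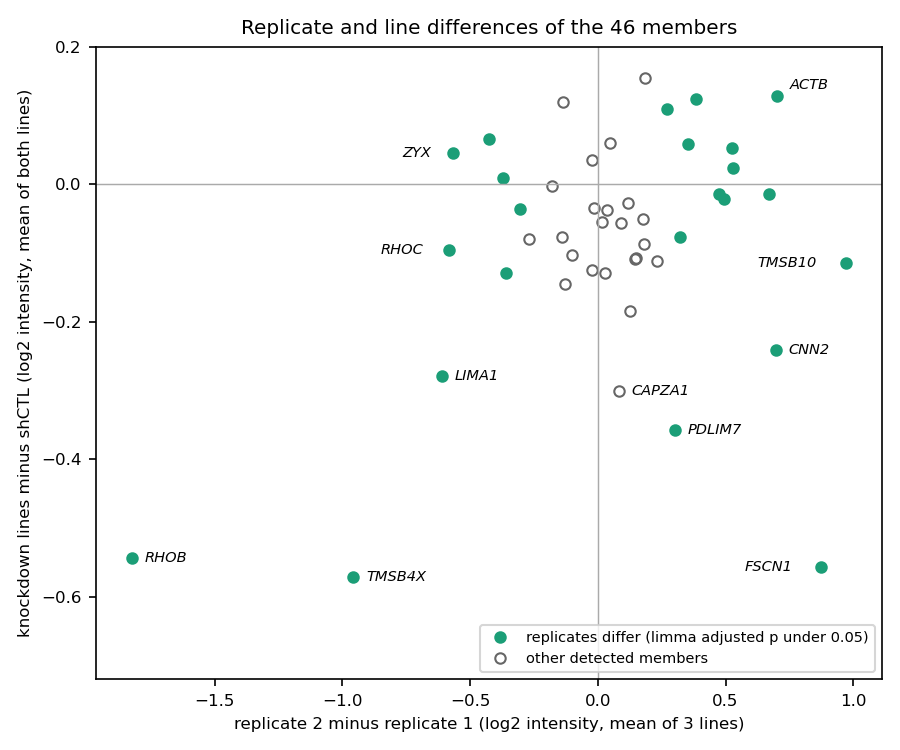
Replicate 2 minus replicate 1 (horizontal axis, mean of 3 lines) against the knockdown lines minus shCTL (vertical axis, mean of both lines), in log2 intensity, for the 46 detected members. Filled points are the 23 members whose replicates differed at a limma adjusted p under 0.05; RHOB, at -1.82 and -0.54, lies far to the lower left, and FSCN1, at 0.87 and -0.56, to the lower right.

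Beyond the members, 169 further genes of adhesion, actin turnover and its control were listed, of which 136 were detected. Their median difference in the mean of both knockdown lines was -0.05, 37 (27.2%) were lower and 8 (5.88%) higher in all 4 comparisons, against 16.1% and 15.5% of all genes, and 0 were called with or without the block. The counts over all 4 comparisons were run for these genes with quantile normalisation only. With median scaling the members' own share lower in all 4 was 8.7%, against 10.1% of all genes. The median was -0.02 for integrins and their partners (26 genes), -0.10 for other turnover and nucleation factors (36 genes), -0.02 for other bundling and membrane skeleton proteins (21 genes), -0.13 for cadherins and catenins (10 genes) and 0.02 for SRF and its co-factors (9 genes). The 1 gene at least 1.4-fold lower in both lines was CDH3, P-cadherin, which read 8.63 and 8.54 in shlinc00598#2, 8.83 and 8.17 in shlinc00598#3, and 9.17 and 9.16 in shCTL, a mean difference of -0.62 (adjusted p = 0.9998, and 0.114 with the block). CDH1, E-cadherin, the adhesion receptor of epithelia, differed by -0.41 (0.114 with the block), with all 4 knockdown arrays below both shCTL arrays. ITGA5, the alpha chain of the fibronectin receptor, differed by -0.35, PTK2 (focal adhesion kinase) by -0.22, TMOD2, which caps the slow-growing end, by -0.36, and CYFIP2 of the WAVE complex by -0.33, each lower in all 4 comparisons with an adjusted p of at least 0.167 with the block. PLS1 (plastin 1), ADD3 (an adducin) and FHL2 differed by -0.21, -0.19 and -0.18. ELK4, a co-factor of SRF, differed by 0.34, the largest difference upwards among the 136 (limma adjusted p = 0.301 with the block). It came mainly from replicate 2, at 0.58 in shlinc00598#2 and 0.68 in shlinc00598#3, against -0.03 and 0.14 in replicate 1.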

How the data were processed

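Total RNA of 3 stable HEK293T lines was amplified to cRNA and hybridised to 6 Illumina HumanHT-12 v4 arrays. The authors exported average probe intensity values with GenomeStudio 2011.1, and the deposited table before normalisation gives these beside detection p-values. The authors' deposited processed table holds log2 values after quantile normalisation (median 6.89 in each column); its columns served, as labelled by accession, only as an alternative.

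Without background correction, intensities were quantile-normalised (limma 3.58.1, R 4.3.3) and log2 transformed. Of 47321 probes, 30113 carry 1 gene symbol, 8 several and 17200 none; 21282 were detected. The brightest detected probe stood for a gene. Genes near background have compressed folds, and having 2 arrays a line limits the precision. A limma fit to all 6 arrays gave the mean of both lines, each line and the lines against each other, with Benjamini-Hochberg adjustment over all 17225 features. A second fit took the replicate number as a block, since arrays of 1 replicate deviated together (correlations across genes of 0.742, 0.76 and 0.827 between lines). Both fits were run on simulated data with known changes, a replicate shift shared by all lines and independent noise. The simulation took the block as true, so it cannot show how well the block suits these arrays.

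The members and the further lists were chosen with earlier results of these data known. Values on every array are given for members at least 1.4-fold different in either line, the 8 with the smallest p with the block, and the largest difference of each role; of the further lists, the 2 genes of smallest p are named, except for 1 list that is not reported here. ACTG1, the other probes, TMSB10 and the sequences shown were chosen after values were seen. Alternatives were neqc (offset 16), median scaling, the processed columns, no or a stricter detection filter, means of probes, the block, other fold criteria, the methods' t-test and leaving out each array in turn. Promoters and their coordinates are RefSeq's, GRCh38.p14; FSCN1, ACTB, MYL9, PFN2, CTTN, RAC1 and TAGLN were not matched there.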

Additional observations from a re-analysis of the deposited data

How the results depend on the processing

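The counts of called members, 0 in each of the 4 contrasts of the lines, stayed at 0 under every alternative run that keeps all arrays, the replicate block included, and with each array left out of the fit with no block; no call changed with the block on all 6 arrays. With the methods' t-test, 0, 1, 2 and 2 members passed unadjusted in the mean of both lines, shlinc00598#2, shlinc00598#3 and between the lines (4.16%, 3.76%, 3.23% and 3.28% of all features), and 0 after Benjamini-Hochberg. RHOB was the 1 member at least 1.4-fold lower in both lines; the count was 0 with median scaling (0.221% of all features), 0 with the processed columns as labelled (0.0697%), 4 at 1.2-fold (2.8%), 3 in the mean of both lines (0.627%), and 0 to 3 with 1 array left out: 0 without shlinc00598#3 replicate 2 (0.104%), 2 without shCTL replicate 1 (0.627%) or shlinc00598#3 replicate 1 (0.697%), and 3 without shCTL replicate 2 (3.19%). The 12 members lower in all 4 comparisons became 4 with median scaling (8.7%, against 10.1% of all features) and 1 (EZR) with the processed columns as labelled (2.17%, against 5.87%), where 3 were higher in all 4 (6.52%, against 6.08%), none of them among the main 5; these counts were not run with an array left out. The members' median of -0.06 was -0.010 with median scaling (0.03 for all features) and -0.10 to -0.035 with 1 array left out, lowest without shCTL replicate 1. The 14 members higher and 9 lower in replicate 2 were 0 and 0 with the processed columns as labelled. The processed columns hold the values of the main setting to within 0.00417, but 4 of the 6 stand under another array's label. Which labelling is right was not tested. The cause of the other shifts was not tested.

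Over settings that keep all arrays, 89 of 90 values of the 12 members named by the rule kept their sign, the exception being ACTB at -0.025 with the processed columns as labelled, and 0 passed the threshold. With 1 array left out, the line's lone array is assumed to vary like the others; with no block the replicate difference enters the values, and 4 of the 12 changed sign: RHOB ran between -1.54 and 0.45, ACTB between -0.21 and 0.46, LIMA1 between -0.62 and 0.057, and TPM1 between -0.22 and 0.00088, with the ends given by leaving out shCTL replicate 1 and shCTL replicate 2. With the block kept, in fits chosen after seeing the data, RHOB ran between -0.67 and -0.42, TMSB4X between -0.60 and -0.54, and FSCN1 between -0.75 and -0.36, and only the fits without shCTL replicate 2 passed the threshold, with adjusted p of 0.0155, 0.0267 and 0.0155, where 1.45% of all features were called. Signal limits CAPZA1, which is near background.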
